A study of Mus musculus with 40 samples.

Results

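Gm6300, Gm43158, Gm15895, AA536875, Cntnap5a and Gm48377 are 6 transcripts of the mouse kidney cortex that have little or no described role in this organ. They are 6 of the 55401 genes in the count table and were selected on their measured values, namely lower counts in diabetic Akita mice than in wild type (WT) mice. That difference is therefore described below and not tested. The members comprise 2 pseudogenes, an antisense RNA, a processed transcript without a reading frame, a protein-coding gene and a transcript that the annotation lists as still to be experimentally checked. In 5 of them nearly all counts came from WT libraries. Gm48377 was low in Akita libraries but not nearly absent, and it is described apart from the other members.

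RNA of the kidney cortex was measured in 40 male C57BL/6J mice, with 5 mice in each of 8 groups and 1 mouse per library. Akita mice were heterozygous for the Ins2-Akita mutation, a form of insulin that misfolds in beta cells and causes diabetes, and their WT littermates were not diabetic. In the ethanol arm both genotypes received either the vehicle, 10% ethanol in water, or MitoGamide, a scavenger of reactive dicarbonyls directed to mitochondria, at 10 mg/kg. In the water arm both genotypes received water or MitoQ, an antioxidant directed to mitochondria. The protocol in the labels gives daily oral gavage from 6 to 22 weeks of age and describes only the ethanol arm, and the dose of MitoQ is not given in the sources used here. The mutation is inherited, so that genotype and diabetes cannot be told apart in any arm. Replicate numbers below name the mouse within its group, and MitoGamide is compared with ethanol and MitoQ with water.

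Pseudogenes are copies of genes that have lost the ability to encode a full protein, and some are still transcribed from a promoter of their own or from one nearby. Antisense RNAs are made from the strand opposite to a gene and may share sequence with it. Many transcripts of the mouse kidney, in particular of the last segment of the proximal tubule, differ between males and females and follow androgen. Contactin-associated proteins, the family of Cntnap5a, are membrane proteins of neurons and are not known as products of tubule cells.

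Gm6300 (ENSMUSG00000104375.1) lies at chr3:14363117-14377587 on the plus strand of GRCm38 and is annotated as an unprocessed pseudogene with 4 exons and 1498 bases of transcript. Its closest relative is Slc7a12, a transporter of amino acids that is higher in the female than in the male mouse kidney, which begins 103110 bases further along the same strand. Over 1396 aligned bases the transcripts were 75.7% identical. Gm43158 (ENSMUSG00000104887.1) lies at chr3:122125106-122227370 on the minus strand and is an unprocessed pseudogene with 6 exons and 1555 bases. Its closest relative is Adh6-ps1, itself a non-coding relative of the alcohol dehydrogenases, with 94.2% identity over 842 bases. The following stretches of both pairs are shown because the similarity bears on which counts can be told apart. Each runs 5′ to 3′ over 120 bases, and capitals mark the positions at which the members of a pair differ, 23 in the first pair and 4 in the second.
Gm6300, chr3:14363243-14363362, plus strand: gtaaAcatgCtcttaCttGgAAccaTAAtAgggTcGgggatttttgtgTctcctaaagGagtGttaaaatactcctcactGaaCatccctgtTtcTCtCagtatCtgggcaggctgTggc
Slc7a12, chr3:14480830-14480949, plus strand: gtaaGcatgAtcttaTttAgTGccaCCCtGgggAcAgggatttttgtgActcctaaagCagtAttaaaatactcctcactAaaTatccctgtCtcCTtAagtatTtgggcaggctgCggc
Gm43158, chr3:122227251-122227370, minus strand: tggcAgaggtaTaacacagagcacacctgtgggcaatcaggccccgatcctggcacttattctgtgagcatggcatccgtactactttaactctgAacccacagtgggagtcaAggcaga
Adh6-ps1, chr3:138386043-138386162, plus strand: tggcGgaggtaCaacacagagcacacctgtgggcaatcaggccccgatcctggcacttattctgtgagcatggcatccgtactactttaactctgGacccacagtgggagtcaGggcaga
Of all stretches of 31 bases in Gm6300, the word length by which kallisto assigns reads by default, 1.16% also occurred in another gene, all in Slc7a12. In Gm43158 the share was 16.2%, most of it in Adh6-ps1, so reads from these stretches can be divided between both genes.

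Gm15895 (ENSMUSG00000085068.1) lies at chr8:110805638-110807477 on the plus strand and has 2 exons and 731 bases. It is antisense to Il34, which encodes interleukin-34, a ligand of the receptor for macrophage colony-stimulating factor, and 75 of its exon bases lie within exons of Il34. AA536875 (ENSMUSG00000115016.1) is a processed transcript at chr14:123043282-123265002 on the plus strand with 6 isoforms of 522 to 1876 bases. It is separated by 11632 bases from Nalcn, a sodium leak channel on the other strand, and shares no exon base with it. Cntnap5a (ENSMUSG00000070695.4), the protein-coding member, spans chr1:115684756-116587323 on the plus strand, with 24 exons and 10945 bases. Its relatives Cntnap5c and Cntnap5b were 90.2% and 88.1% identical over 3930 and 4076 bases. Gm48377 (ENSMUSG00000112523.1) has a single exon of 871 bases at chr10:106183021-106183891 on the plus strand. It shared 37.8% of its 31-base words with 18 other genes, most with Gm17167, against 6.42% for Gm15895, 0.367% for AA536875 and 3.53% for Cntnap5a. The 6 members lie on 5 chromosomes, and none lies on chromosome 7, which carries Ins2.

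The promoters of 2 of the 6 members were present in the RefSeq table of GRCm38.p6. They are shown because both transcripts were low in the same libraries, and run from 250 bases before to 50 bases after the RefSeq start, with the bases after the start in capitals. These starts differ from the GENCODE starts given above.
Gm15895, chr8:110804946-110805245, plus strand: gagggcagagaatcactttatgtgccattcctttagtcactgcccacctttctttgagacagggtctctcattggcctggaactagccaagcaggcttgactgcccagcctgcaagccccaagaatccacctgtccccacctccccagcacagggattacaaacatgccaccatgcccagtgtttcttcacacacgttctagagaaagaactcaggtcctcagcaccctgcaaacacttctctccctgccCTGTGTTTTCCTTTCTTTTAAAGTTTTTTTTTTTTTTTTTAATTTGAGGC
AA536875, chr14:123168936-123169235, plus strand: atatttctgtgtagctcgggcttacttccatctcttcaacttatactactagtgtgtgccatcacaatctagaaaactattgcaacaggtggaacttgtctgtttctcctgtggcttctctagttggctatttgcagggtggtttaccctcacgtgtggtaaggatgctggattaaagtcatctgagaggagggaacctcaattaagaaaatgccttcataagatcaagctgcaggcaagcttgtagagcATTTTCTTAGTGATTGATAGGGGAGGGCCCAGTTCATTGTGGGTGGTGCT
Neither window held AGAACA, the core letters of the element bound by the androgen and glucocorticoid receptors, on either strand, whereas 19% of the 32851 promoters in the table did. TATAAA, the letters of the TATA box, was also absent from both strands of both windows and occurred in 13.6% of all promoters. The motifs do not overlap each other. Absence of these letters from 300 bases says nothing of the factors.

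Levels are given as CPM, counts scaled to a common library size of 1000000, computed from the estimated counts of each library with TMM scaling over all 40 libraries. Library totals lay between 9106654 and 24321424 counts with a median of 15638394. After TMM scaling a single count was worth 0.0400 to 0.216 CPM. The library of WT mouse 3 on MitoQ stood apart in its scaling. It held 9179473 counts, with a TMM factor of 0.505 against 0.759 for the next lowest and the highest value of a single count. The MitoQ ratios of the members are given with and without it. The first principal component of log2 CPM, the axis of widest spread among the 40 libraries, held 43.5% of the variance. On it the libraries on ethanol and MitoGamide lay between -51.4 and -7.91 and those on water and MitoQ between -32.6 and 90.2. WT mouse 3 on MitoQ was at 90.2, WT mouse 3 on water at 83.4 and Akita mouse 2 on water at 76.9. The cause of this spread was not tested. Markers of the proximal tubule, such as Slc34a1, Lrp2 and Cubn, summed to 7245 to 14469.6 CPM in WT and 7570.2 to 12087 CPM in Akita libraries, so that the defining markers of the labelled tissue were present. Of the 3 markers of the adrenal cortex, Cyp11b2 was at 0 counts in every library, and Cyp11b1 and Cyp21a1 reached 0.396 and 0.215 CPM. Of the 5 pancreatic markers, Ins1 was at 0 counts in every library, Ins2 reached 0.119 CPM and Cela1 71.1 CPM, and the 4 markers of neurons summed to at most 2.04 CPM. The 3 liver markers Alb, Apoa1 and Serpina1a summed to 391 CPM in WT mouse 1 on water, with Alb at 292 CPM, and to at most 57.2 CPM in the other libraries. Without that mouse the WT mean on water went from 20.8 to 18.3 CPM for Gm6300, from 2.12 to 1.67 CPM for Gm15895 and from 7.38 to 6.71 CPM for Cntnap5a. It went from 3.6 to 3.8 CPM for Gm43158, from 2.68 to 2.77 CPM for AA536875 and from 37.5 to 38.3 CPM for Gm48377.

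All members were lower in Akita than in WT mice in each of the 4 arms. In 23 of 24 comparisons, 6 members in 4 arms, every Akita value lay below every WT value, and in 24 of 24 without the library of WT mouse 3 on MitoQ. For 5 of the 6 members, all 20 WT values lay above all 20 Akita values, the exception being Gm48377. Among all tested genes, the 5 Akita values lay below the 5 WT values in 6.52% on ethanol, 5.97% on MitoGamide, 1.61% on water and 1.45% on MitoQ. These shares compare 5 with 5 libraries within an arm and include WT mouse 3 on MitoQ. No share of all genes is given for 20 against 20 libraries or without that mouse. Because the members were chosen for this difference, nothing is read from how many of them did not overlap. All 6 members passed the filter of a mean of at least 10 counts in each genotype comparison, and 5 of them did so only through their WT libraries. In bulk RNA, fewer cells of a type and less RNA per cell cannot be told apart.

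**Figure D1:**
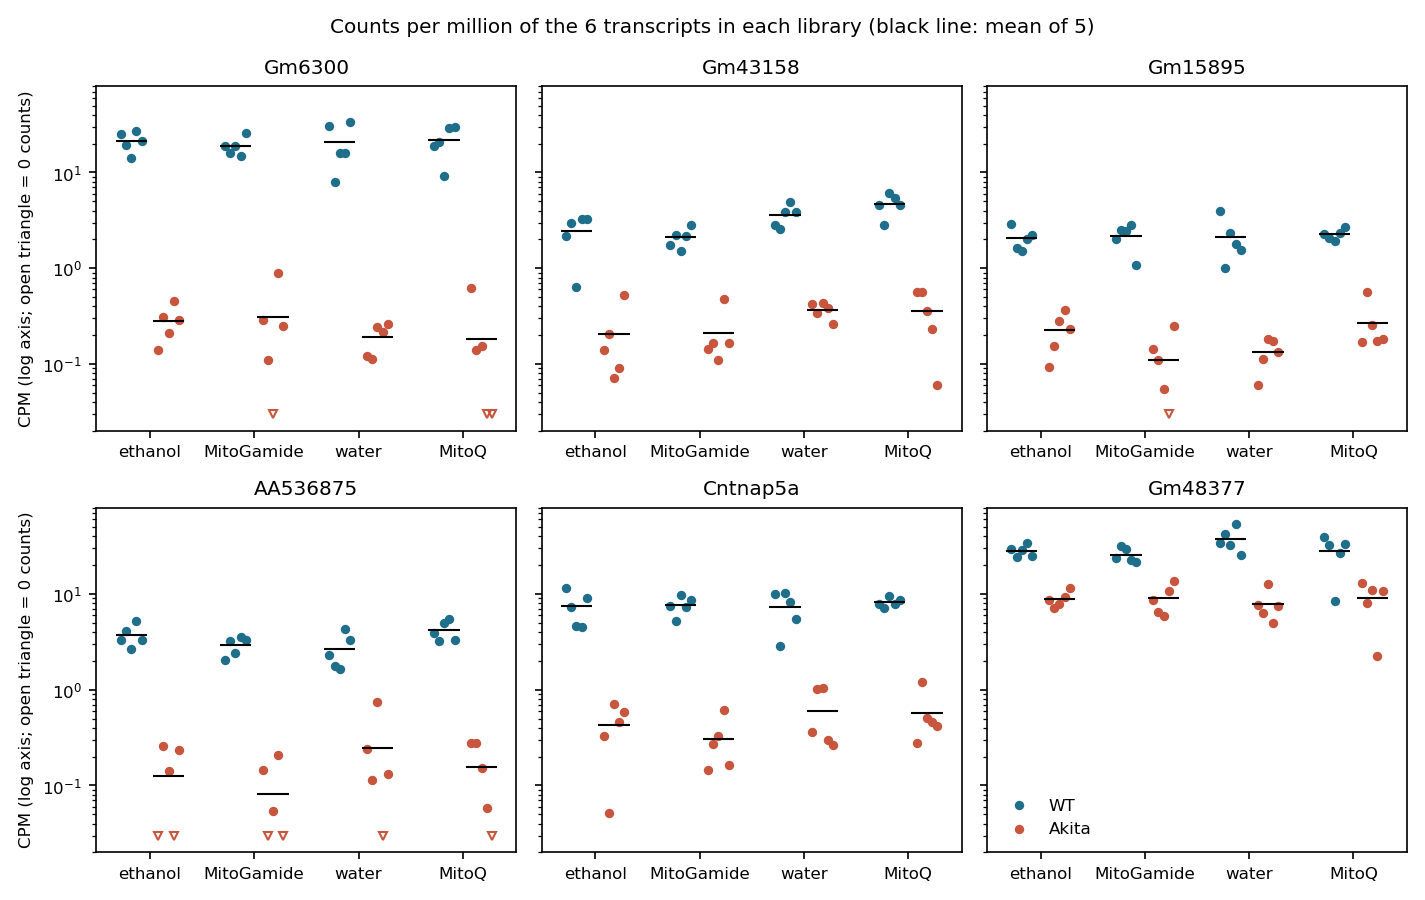
CPM on a log axis (vertical) of each of the 6 transcripts in the 40 libraries, by arm (horizontal) and genotype (colour), where points are libraries, black lines are means of 5 and open triangles are libraries with 0 counts, drawn at the foot of the axis. WT points lie above Akita points in every panel and arm except for Gm48377 on MitoQ, where the library of WT mouse 3 at 8.43 CPM lies among the Akita libraries.

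Gm6300 showed the widest gap of all members. In WT mice Gm6300 was at 25.2, 19.1, 14.3, 27 and 21.4 CPM in the 5 libraries on ethanol and at 18.9, 16, 19, 14.8 and 25.8 CPM in those on MitoGamide. The WT libraries on water held 30.8, 7.9, 15.9, 15.9 and 33.4 CPM of Gm6300, and those on MitoQ 19, 20.7, 9.08, 29.4 and 29.8 CPM. The WT libraries thus spanned 7.9 to 33.4 CPM, with both extremes on water and a coefficient of variation of 34.4% over the 20 mice, and no arm lay apart from the others. Akita levels of Gm6300 were 0.141, 0.309, 0.212, 0.456 and 0.291 CPM on ethanol and 0.289, 0.109, 0, 0.892 and 0.248 CPM on MitoGamide. The Akita libraries on water held 0.12, 0.114, 0.245, 0.215 and 0.264 CPM of Gm6300, and those on MitoQ 0.616, 0.141, 0.153, 0 and 0 CPM. Raw counts were 0 to 13 in Akita libraries, 3 of them at 0, and 42 to 590 in WT libraries. The counts of the WT mice exceeded those of the Akita mice by factors of 71.9 (49.2 to 109) on ethanol, 69.1 (45.5 to 111) on MitoGamide, 108 (64.4 to 199) on water and 129 (79 to 226) on MitoQ, with 95% intervals that cover counting error only. Without WT mouse 3 on MitoQ the last ratio was 135 (82.9 to 237) and the log2 difference -7.0. Akita mouse 1 on MitoQ held 11 of the 16 Akita counts of its arm, and without it the ratio was 326 (139.5 to 1006). Akita mouse 4 on MitoGamide held 13 of the 22, and without it the ratio there was 137 (71.9 to 300.1). On the log2 scale the fitted differences, Akita minus WT, were -6.16, -5.97, -6.70 and -6.82 in the order ethanol, MitoGamide, water and MitoQ, with standard errors of 0.25, 0.42, 0.50 and 0.56. On ethanol and on MitoGamide only 1 of all tested genes had a lower value, but Gm6300 was chosen for this difference and nothing is read from its rank. The 3 Akita libraries at 0 allow up to 0.164, 0.173 and 0.18 CPM at a floor of 3 counts.

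Gm43158, the relative of Adh6-ps1, was counted in all 40 libraries. In WT mice Gm43158 was at 2.18, 2.96, 0.64, 3.23 and 3.24 CPM in the 5 libraries on ethanol and at 1.77, 2.22, 1.51, 2.18 and 2.82 CPM in those on MitoGamide. The WT libraries on water held 2.8, 2.57, 3.86, 4.88 and 3.88 CPM of Gm43158, and those on MitoQ 4.54, 2.83, 6.06, 5.35 and 4.59 CPM. The mean was 2.45 ± 1.1 CPM on ethanol (SD, n = 5), 2.1 ± 0.499 on MitoGamide, 3.6 ± 0.933 on water and 4.67 ± 1.2 on MitoQ, with WT mouse 3 on ethanol the lowest of the 20 WT mice and WT mouse 3 on MitoQ, the library that stood apart, the highest. Akita levels of Gm43158 were 0.141, 0.206, 0.0706, 0.0911 and 0.524 CPM on ethanol and 0.144, 0.164, 0.109, 0.48 and 0.165 CPM on MitoGamide. The Akita libraries on water held 0.42, 0.342, 0.429, 0.387 and 0.264 CPM of Gm43158, and those on MitoQ 0.56, 0.562, 0.356, 0.23 and 0.0601 CPM. No Akita library was at 0, but counts were as low as 1 and no higher than 10. On ethanol the lowest WT value exceeded the highest Akita value by a factor of only 1.22, which made this the narrowest gap among the 5 members whose groups did not overlap. The ratios of WT to Akita counts were 11.6 (7.24 to 19.6) on ethanol, 10.4 (6.21 to 18.6) on MitoGamide, 9.09 (6.14 to 14) on water and 12.7 (8.7 to 19.2) on MitoQ. Without WT mouse 3 on MitoQ the last ratio was 12.3 (8.44 to 18.7) and the log2 difference -3.60. Akita mouse 5 on ethanol held 9 of the 19 Akita counts of its arm, and without it the ratio on ethanol was 18 (9.59 to 38). The log2 differences over all mice were -3.52, -3.25, -3.21 and -3.68. With a share of 16.2% of its 31-base words in other genes, part of the counts of Gm43158 cannot be told apart from those of Adh6-ps1.

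Gm15895, the antisense RNA at the Il34 locus, was at a few CPM at most in every library. In WT mice Gm15895 was at 2.88, 1.61, 1.52, 2.01 and 2.22 CPM in the 5 libraries on ethanol and at 2.04, 2.5, 2.47, 2.81 and 1.08 CPM in those on MitoGamide. The WT libraries on water held 3.94, 1.00, 2.32, 1.8 and 1.54 CPM of Gm15895, and those on MitoQ 2.27, 2.05, 1.95, 2.35 and 2.72 CPM. Both the lowest and the highest WT value came from mice on water, and the 5 mice on MitoQ were the most alike. Akita levels of Gm15895 were 0.0941, 0.155, 0.282, 0.364 and 0.233 CPM on ethanol and 0.144, 0.109, 0.0546, 0 and 0.248 CPM on MitoGamide. The Akita libraries on water held 0.0601, 0.114, 0.184, 0.172 and 0.132 CPM of Gm15895, and those on MitoQ 0.168, 0.562, 0.255, 0.173 and 0.18 CPM. A single Akita library, mouse 4 on MitoGamide, was at 0 counts, which allows up to 0.206 CPM. Akita libraries held 0 to 8 counts of Gm15895 and WT libraries 9 to 55. The ratios of WT to Akita counts were 8.9 (5.66 to 14.7) on ethanol, 19.9 (9.85 to 46.9) on MitoGamide, 15.2 (8.06 to 32.4) on water and 9.18 (5.85 to 15.1) on MitoQ. With so few Akita counts the interval on MitoGamide reached from 9.85 to 46.9, and the 4 intervals overlapped each other. The log2 differences were -3.13, -4.23, -3.88 and -3.10. Leaving out WT mouse 3 on MitoQ gave a ratio of 9.31 for Gm15895 in that arm and a log2 difference of -3.15.

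AA536875, the processed transcript next to Nalcn, had the most Akita libraries without any count. In WT mice AA536875 was at 3.33, 4.1, 2.64, 5.18 and 3.33 CPM in the 5 libraries on ethanol and at 2.04, 3.24, 2.4, 3.59 and 3.29 CPM in those on MitoGamide. The WT libraries on water held 2.29, 1.76, 1.66, 4.35 and 3.33 CPM of AA536875, and those on MitoQ 3.91, 3.26, 4.97, 5.43 and 3.28 CPM. WT values spanned 1.66 to 5.43 CPM, and the mice on water held the 2 lowest. Akita levels of AA536875 were 0, 0.258, 0.141, 0 and 0.233 CPM on ethanol and 0.144, 0, 0.0546, 0.206 and 0 CPM on MitoGamide. The Akita libraries on water held 0.24, 0.114, 0.736, 0 and 0.132 CPM of AA536875, and those on MitoQ 0.28, 0.281, 0.153, 0.0575 and 0 CPM. Counts were 0 in 6 of the 20 Akita libraries, which allow up to 0.129 to 0.248 CPM each, and the highest Akita value was that of mouse 3 on water with 12 counts. The ratios of WT to Akita counts were 30.9 (17.1 to 62.5) on ethanol, 37.6 (17 to 103) on MitoGamide, 10.2 (6.27 to 17.6) on water and 26 (14.9 to 49.5) on MitoQ. The lower ratio on water rested on Akita mouse 3, which held 12 of the 18 Akita counts there, and without it the ratio was 23.7 (10.7 to 65.4). On MitoGamide, Akita mouse 4 held 3 of the 6, and without it the ratio was 60.9 (20.6 to 298). Whether the arms differ was not tested. The log2 differences were -4.88, -5.04, -3.36 and -4.68. Leaving out WT mouse 3 on MitoQ gave a ratio of 25.5 for AA536875 in that arm and a log2 difference of -4.64.

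Cntnap5a, the only member that encodes a protein, was detected in all 40 libraries. In WT mice Cntnap5a was at 11.7, 7.37, 4.64, 4.57 and 9.13 CPM in the 5 libraries on ethanol and at 7.41, 5.18, 9.66, 7.39 and 8.59 CPM in those on MitoGamide. The WT libraries on water held 10.0, 2.89, 10.3, 8.27 and 5.42 CPM of Cntnap5a, and those on MitoQ 7.82, 7.09, 9.52, 7.86 and 8.63 CPM. The WT mice on MitoQ lay within 7.09 to 9.52 CPM, whereas those on water ranged from 2.89 to 10.3 CPM. Akita levels of Cntnap5a were 0.329, 0.0516, 0.706, 0.456 and 0.583 CPM on ethanol and 0.144, 0.273, 0.328, 0.617 and 0.165 CPM on MitoGamide. The Akita libraries on water held 0.36, 1.03, 1.04, 0.301 and 0.264 CPM of Cntnap5a, and those on MitoQ 0.28, 1.19, 0.509, 0.46 and 0.421 CPM. The highest Akita values were those of mouse 2 on MitoQ and of mice 2 and 3 on water, and all lay under the lowest WT value of any arm. The ratios of WT to Akita counts were 17.9 (12.9 to 25.6) on ethanol, 25.2 (16.8 to 39.7) on MitoGamide, 12.8 (9.33 to 18.1) on water and 14.7 (10.9 to 20.2) on MitoQ. The log2 differences were -4.15, -4.56, -3.63 and -3.84. Leaving out WT mouse 3 on MitoQ gave a ratio of 14.5 for Cntnap5a in that arm and a log2 difference of -3.81. Because its transcript is long, the WT mean per kilobase of transcript was only 0.701 CPM.

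Gm48377, the single-exon transcript, was lower in Akita mice by a smaller factor and remained readily detectable. In WT mice Gm48377 was at 29.3, 24.4, 28.6, 33.9 and 25 CPM in the 5 libraries on ethanol and at 23.8, 31.6, 29.3, 22.6 and 21.4 CPM in those on MitoGamide. The WT libraries on water held 34.4, 42, 32.2, 53.4 and 25.5 CPM of Gm48377, and those on MitoQ 39.3, 32.2, 8.43, 26.5 and 32.9 CPM. WT mouse 3 on MitoQ, the library that stood apart, held only 39 counts and the lowest value, and the remaining 19 WT mice held at least 21.4 CPM. Akita levels of Gm48377 were 8.56, 7.22, 7.91, 9.25 and 11.5 CPM on ethanol and 8.66, 6.45, 5.95, 10.8 and 13.7 CPM on MitoGamide. The Akita libraries on water held 7.63, 6.27, 12.6, 4.99 and 7.53 CPM of Gm48377, and those on MitoQ 13.2, 8.08, 11.1, 2.24 and 10.8 CPM. Akita libraries held 39 to 235 counts, and the range of 2.24 to 13.7 CPM lay below the WT range except for that library. The ratios of WT to Akita counts were 3.15 (2.92 to 3.41) on ethanol, 2.89 (2.64 to 3.16) on MitoGamide, 4.66 (4.25 to 5.12) on water and 3.38 (3.11 to 3.68) on MitoQ, and 3.57 (3.29 to 3.89) on MitoQ without WT mouse 3. The log2 differences were -1.65, -1.48, -2.26 and -1.64, and -1.85 without that mouse. In each arm 61 or more of the tested genes had a lower log2 difference than Gm48377, and nothing is read from this rank either.

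**Figure D2:**
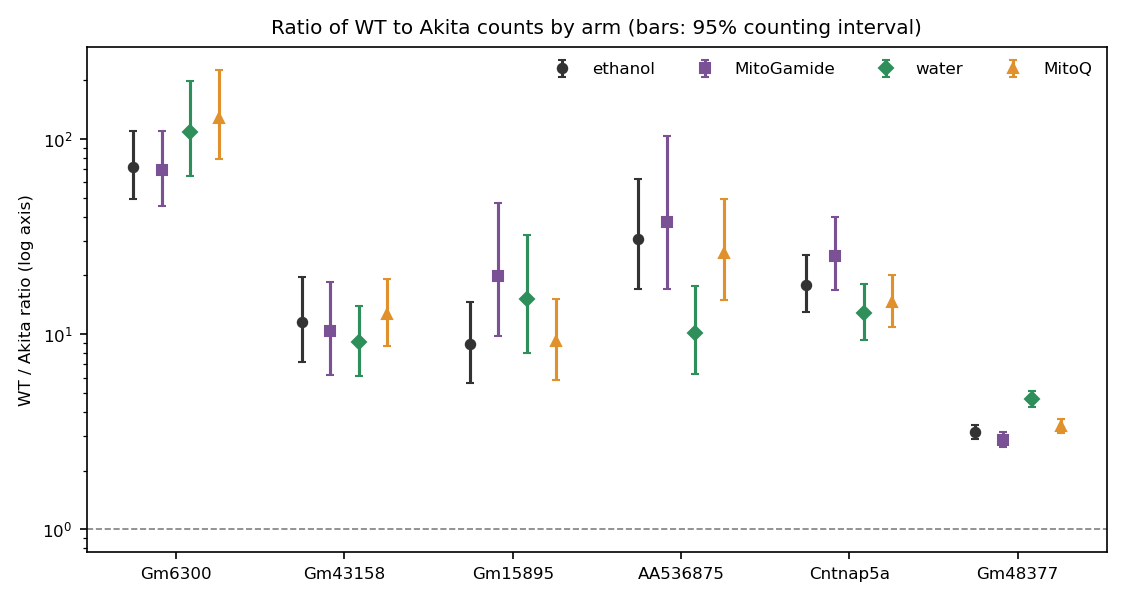
Ratio of WT to Akita counts on a log axis (vertical) for the 6 transcripts (horizontal) in the 4 arms (colour and shape), where points are ratios of summed counts per effective library size and bars are 95% intervals of counting error. Gm6300 lies between 69.1 and 129 and Gm48377 between 2.89 and 4.66. The points of Gm6300 on MitoGamide and MitoQ, Gm43158 on ethanol and AA536875 on MitoGamide and water rise by over 1.5 times without 1 Akita library each.

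Scaled to the longest transcript of each member, WT means per kilobase were 34.3 CPM for Gm48377, 13.8 for Gm6300, 2.95 for Gm15895, 2.06 for Gm43158, 1.8 for AA536875 and 0.701 for Cntnap5a. All of these were measured in the same libraries. Within a library, Gm48377 exceeded Gm6300 and Gm6300 exceeded Gm15895 in 20 of 20 WT mice, and AA536875 exceeded Cntnap5a in 19. Gm15895 exceeded Gm43158 in 14 of 20 and Gm43158 exceeded AA536875 in 13 of 20, so that the order of these 3 changed from mouse to mouse. In Akita mice the order per kilobase was Gm48377 at 10.0, Gm15895 at 0.252, Gm43158 at 0.184, Gm6300 at 0.161, AA536875 at 0.0808 and Cntnap5a at 0.0435 CPM. Gm6300 thus came after Gm48377 in WT mice and lower in the order in Akita mice, where Gm48377 exceeded Gm15895 in 20 of 20 libraries and the higher of each other pair of neighbours in the order was so in 11 to 14 of 20. The coefficient of variation over the 20 WT mice lay between 28.9% for Cntnap5a and 42.7% for Gm43158.

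Differences of the members between treatments and between vehicles could be tested, because the members were chosen on genotype and not on treatment. The study assigned mice at random to the ethanol vehicle or MitoGamide, and assignment to the water arm is not described. Ethanol against water therefore also compares separate arms, so the vehicle and any other difference between arms cannot be told apart. In WT mice none of the 6 members passed an adjusted p of 0.05 (edgeR's quasi-likelihood test, Benjamini-Hochberg over all tested genes) for MitoGamide against ethanol, MitoQ against water or ethanol against water, and DESeq2 called 0 of the 3, 6 and 6 members for which it gave an adjusted p. The unadjusted p was under 0.05 for 0, 0 and 1 of them. AA536875 was at 4.17 ± 0.99 CPM on MitoQ and 2.68 ± 1.14 on water (SD, n = 5), a log2 difference of 0.64 (SE 0.30) with an adjusted p of 1.000 from edgeR. Its groups overlapped, since 4.35 CPM of WT mouse 4 on water exceeded 3 of the 5 values on MitoQ. Gm48377 was at 28.2 ± 3.85 CPM on ethanol and 37.5 ± 10.7 on water, a log2 difference of -0.40 (SE 0.18) with an adjusted p of 0.179 from edgeR. Without WT mouse 5 on water, the lowest of the water group, the same edgeR test gave -0.50 with an adjusted p of 0.0381, and over all alternatives the adjusted p of this difference lay between 0.0381 and 0.386.

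Over all members the log2 differences in WT mice lay between -0.35 and 0.07 for MitoGamide, between -0.41 and 0.64 for MitoQ and between -0.54 and 0.50 for ethanol against water. Without WT mouse 3 on MitoQ those of MitoQ lay between -0.19 and 0.58, with that of AA536875 at 0.58, and 0 of the 6 were called by edgeR. A p that misses the threshold does not show that levels were alike, and the standard errors of 0.12 to 0.39 leave room for changes of that size. Among all genes tested in WT mice, 0% were called for each of the 3 comparisons by edgeR. With an unadjusted p under 0.05, 1841 of 17395 genes were found for MitoGamide, 575 of 17881 for MitoQ and 4959 of 18092 for ethanol against water. DESeq2 called 74, 2 and 725 genes. Without WT mouse 5 on water, 5216 genes were called by edgeR for ethanol against water.

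In Akita mice only Gm48377 had enough counts to pass the filter. Its log2 differences were 0.03 (SE 0.21) for MitoGamide, 0.22 (SE 0.38) for MitoQ and 0.20 (SE 0.23) for ethanol against water, with adjusted p of 0.957, 0.999 and 0.531 from edgeR. The Akita values of the groups overlapped in each of these comparisons. The other members were tested without the filter and 0 were called by edgeR, with the lowest adjusted p at 0.520, 0.964 and 0.368. The largest of these differences was that of Gm15895 on MitoGamide, -1.03 (SE 0.66), at mean levels of 0.111 against 0.226 CPM. Among all genes 1.26% were called for MitoGamide in Akita mice, 0% for MitoQ and 12.7% for ethanol against water. For MitoQ, 363 genes had an unadjusted p under 0.05 and DESeq2 called 0. The 12.7%, or 2283 genes, became 1 or 2 without Akita mouse 3 or 5 on water or 1, 2, 3 or 5 on ethanol, 132 without mouse 2 on water, 1178 without mouse 4 on ethanol, and 6496 and 6120 without mouse 1 or 4 on water. The 214 genes called for MitoGamide became 0 to 4 without any of the Akita mice on ethanol, 13, 101 and 30 without mouse 2, 3 or 4 on MitoGamide, and 802 without mouse 5.

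**Figure D3:**
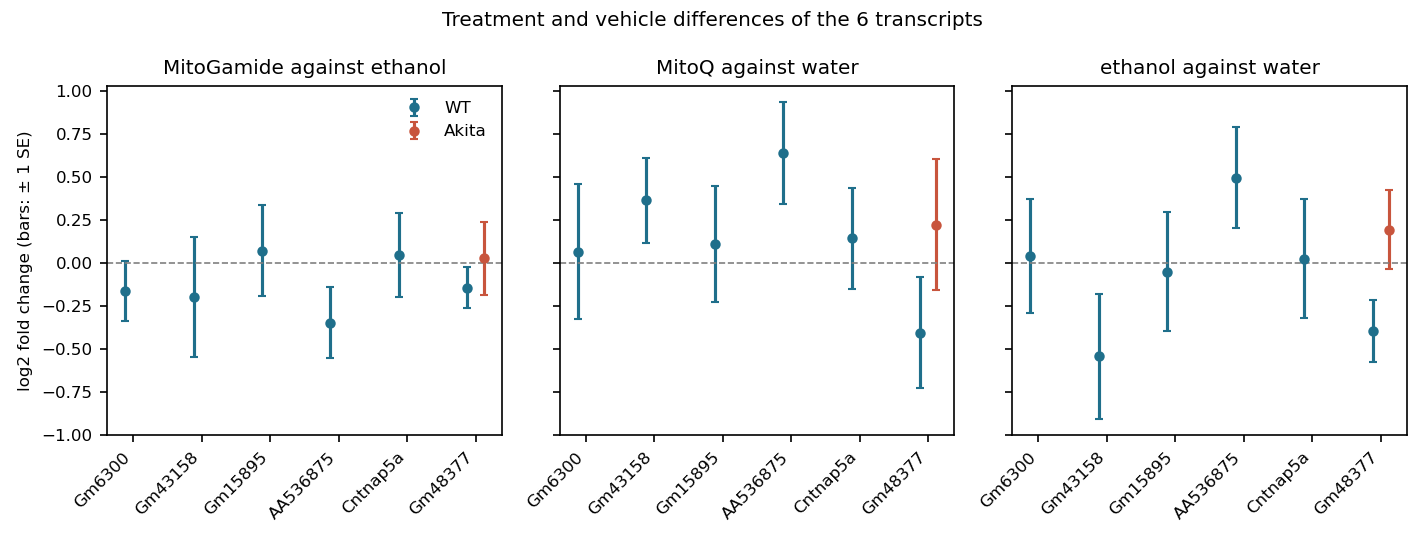
Log2 fold changes (vertical, bars ± 1 SE from edgeR) of the 6 transcripts (horizontal) for MitoGamide against ethanol, MitoQ against water and ethanol against water, in WT and, where the filter was passed, in Akita mice (colour, 5 mice per group). The WT points lie between -0.54 and 0.64, and Akita points are present only for Gm48377.

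Genes next to the members were examined for the same difference. Of 112 genes within 500 kb of a member, 50, 48, 51 and 50 were tested on ethanol, MitoGamide, water and MitoQ, and 9, 8, 1 and 3 of them were called lower in Akita mice by edgeR. Over all tested genes the share called lower was 8.22%, 6.60%, 0.366% and 0.292%. Higher calls numbered 2, 1, 1 and 0, against 8.18%, 7.71%, 0.186% and 0.265% of all genes. The calls were unevenly spread over the members. By AA536875, 5, 3, 0 and 1 of 7, 6, 7 and 7 tested genes were called lower. By Gm43158 the lower calls numbered 1, 2, 0 and 1, by Gm6300 2, 2, 0 and 0 and by Gm15895 1 in each arm. No gene by Gm48377 was called lower. Il34 was the only neighbour called in all 4 arms. On ethanol it was at 1.8 ± 0.207 CPM in the Akita group against 8.2 ± 1.76 CPM in the WT group (SD, n = 5), and the log2 differences were -2.16 (SE 0.15, adjusted p = 3.43e-06) on ethanol, -2.03 (SE 0.17, adjusted p = 6.96e-05) on MitoGamide, -2.39 (SE 0.35, adjusted p = 0.0139) on water and -2.44 (SE 0.16, adjusted p = 5.29e-05) on MitoQ, all from edgeR's quasi-likelihood test. The Akita values of Il34 lay below its WT values in every arm. Its call on water was lost without Akita mouse 4 on water and with the replicate number as a block (adjusted p = 0.0522 and 0.0736 from edgeR). The library kit marks strand, but whether the strand was used in counting is not given in the sources used here, so reads of the 75 shared exon bases may have been divided between Il34 and Gm15895.

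Nalcn, which sets the resting sodium leak of excitable cells, was also low in Akita mice beside AA536875. It was at 0.27 ± 0.116 CPM in the Akita group against 1.61 ± 0.535 CPM in the WT group on ethanol and at 0.47 ± 0.235 CPM in the Akita group against 4.32 ± 1.71 CPM in the WT group on MitoQ. The log2 differences were -2.53 (SE 0.34, adjusted p = 3.39e-04) on ethanol, -1.77 (SE 0.39, adjusted p = 0.0127) on MitoGamide, -2.52 (SE 0.54, adjusted p = 0.071) on water and -3.11 (SE 0.36, adjusted p = 0.00188) on MitoQ by edgeR, so that 3 of 4 arms passed. On water Nalcn was called by DESeq2 (adjusted p = 6.00e-04) and by edgeR without the filter on low counts (adjusted p = 0.0469). Tmtc4, which lies 59247 bases to the other side of AA536875 and encodes a mannosyltransferase of the endoplasmic reticulum, differed by -0.59 (SE 0.14, adjusted p = 0.00986) on ethanol, -0.63 (SE 0.11, adjusted p = 0.00437) on MitoGamide, -0.63 (SE 0.21, adjusted p = 0.358) on water and -0.58 (SE 0.14, adjusted p = 0.11) on MitoQ. Without WT mouse 3 on MitoQ, Tmtc4 was called on MitoQ as well (adjusted p = 0.0383 by edgeR), and likewise without Akita mouse 1 on MitoQ (0.0423 by edgeR) and by DESeq2 (0.0147). Next to Gm43158, the processed pseudogene Gm4609 starts 2825 bases away and was called by edgeR on MitoQ, at 0.118 ± 0.185 CPM in the Akita group against 3.46 ± 2.35 CPM in the WT group and a log2 difference of -4.80 (SE 0.74, adjusted p = 0.0117). On ethanol and water its differences of -0.77 and -2.90 did not pass (adjusted p = 0.256 and 0.242 by edgeR), and on MitoGamide it did not pass the filter. DESeq2 called Gm4609 on water as well (adjusted p = 0.0339), and the edgeR call on MitoQ was lost with the replicate number as a block and without Akita mouse 5 (adjusted p = 0.073 and 0.0501). Over 14 alternatives the log2 difference of Gm4609 on MitoQ lay between -6.01 and -4.42. WT mouse 3 on MitoQ held the highest value of Gm4609, Nalcn and Adh6-ps1, and without it their log2 differences on MitoQ were -4.42, -2.92 and -3.11, all still called by edgeR. Whether the arms differ from each other was not tested. Sf3b3, 2762 bases from Gm15895 and a subunit of the splicing machinery, was not called in any arm. Gm42544, the nearest gene outside Gm43158 on its other side, was tested in all 4 arms and Gm15894, on the other side of Gm15895, on water alone, and edgeR called neither. Gm42544 lies 98035 bases away, and the span of Gm43158 itself overlaps Abca4, on the other strand, and the processed pseudogenes Gm43157 and Gm9361. Gm43158 and Abca4 share no exon base. Abca4 averaged 6.86 CPM over the 20 WT and 4.81 CPM over the 20 Akita libraries. It was called lower on MitoQ without WT mouse 3 (-0.73, SE 0.15, adjusted p = 0.0364 by edgeR) and not with it. The nearest genes beside Gm6300 (Gm38311 and Gm37358), Cntnap5a (Gm17916 and Gm28263) and Gm48377 (Gm48376 and Rps15a-ps1) had too few counts to be tested, and so had every other gene within 500 kb of Cntnap5a.

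Relatives by sequence did not move in a single direction. Adh6-ps1 was lower in Akita mice in all 4 arms, with log2 differences of -2.28 (SE 0.48, adjusted p = 0.00604) on ethanol, -5.27 (SE 0.60, adjusted p = 4.35e-04) on MitoGamide, -2.60 (SE 0.41, adjusted p = 0.0167) on water and -3.59 (SE 0.56, adjusted p = 0.0124) on MitoQ by edgeR. It was at 0.45 ± 0.300 CPM in the Akita group against 2.76 ± 0.743 CPM in the WT group on water, and on MitoGamide a single count was found over the 5 Akita libraries, against which the WT counts were 52 times as many (14 to 435, counting error only). Without Akita mouse 4 on water or Akita mouse 5 on MitoQ, the edgeR calls of Adh6-ps1 in these arms were lost (adjusted p = 0.0636 and 0.0517). That on water was also lost with the replicate number as a block (adjusted p = 0.0721 by edgeR). On MitoGamide its log2 difference lay between -7.37 and -4.96 over the 10 alternatives with a value. Adh1, the intact class I alcohol dehydrogenase, fell by 1.09 on ethanol and by 0.89 on MitoGamide on the log2 scale (adjusted p = 5.22e-05 and 0.00268 by edgeR). On water and MitoQ, Adh1 differed by -1.47 (SE 0.35, adjusted p = 0.129) and -1.06 (SE 0.35, adjusted p = 0.287), the last being called without WT mouse 3 on MitoQ (adjusted p = 0.04997 by edgeR). DESeq2 called Adh1 on water (adjusted p = 0.00501). Slc7a12, the relative of Gm6300, was higher in Akita mice, at 13.2 ± 8.04 CPM in the Akita group against 3.16 ± 1.36 CPM in the WT group on ethanol. Its log2 differences were 2.08 (SE 0.44, adjusted p = 0.00628) on ethanol, 1.27 (SE 0.64, adjusted p = 0.194) on MitoGamide, 2.77 (SE 0.53, adjusted p = 0.0442) on water and 1.28 (SE 0.55, adjusted p = 0.505) on MitoQ by edgeR, and its groups overlapped in every arm. Without Akita mouse 1 on MitoGamide it was called in that arm as well (adjusted p = 0.0471 by edgeR). The call on water was lost in 9 of 15 alternatives, with adjusted p up to 0.136 by edgeR. Slc7a13, the transporter of cystine and acidic amino acids of the last proximal tubule segment, differed by -1.58 (SE 0.19, adjusted p = 1.43e-04) on ethanol, -1.61 (SE 0.45, adjusted p = 0.0343) on MitoGamide, -2.0 (SE 0.30, adjusted p = 0.014) on water and -1.19 (SE 0.46, adjusted p = 0.417) on MitoQ by edgeR. Its call on MitoGamide was lost in 7 of 15 alternatives, with adjusted p up to 0.0754 by edgeR, and that on water with the replicate number as a block and without Akita mouse 4 (adjusted p = 0.0604 and 0.0531 by edgeR). Slc7a12 and Slc7a13 differed by 1.09 and -1.36 on MitoQ without WT mouse 3 and were not called by edgeR. Gm17167, which shares words with Gm48377, differed by 0.06, -0.20, -0.16 and -0.35 on the log2 scale and was not called. Cntnap5b and Cntnap5c held 0 to 3 counts per library in both genotypes.

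**Figure D4:**
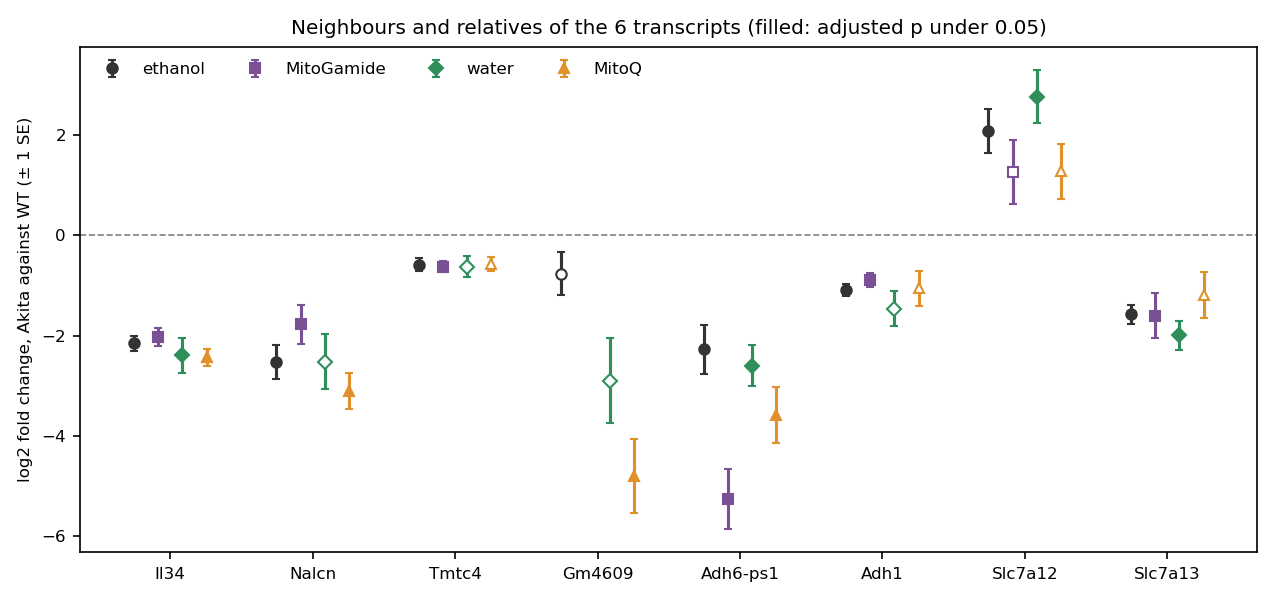
Log2 fold changes of Akita against WT mice (vertical, bars ± 1 SE from edgeR) for 8 neighbours or sequence relatives of the 6 transcripts (horizontal) in the 4 arms (colour and shape), with filled symbols where the adjusted p was under 0.05. Il34 and Adh6-ps1 are filled and below 0 in all arms, Slc7a12 lies above 0 in all arms and is filled on ethanol and water, and Gm4609 has no point on MitoGamide.

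The family and sex-biased lists were described beside the members. Of the 14 contactin-associated proteins, contactins and partners other than Cntnap5a, 4, 3, 4 and 4 were tested in the 4 arms and 0 were called by edgeR in any, with an unadjusted p under 0.05 for 0, 1, 0 and 0 of them and 0 calls by DESeq2. Nrcam, a cell adhesion partner of these proteins, differed by 0.38 (SE 0.34) on ethanol with an adjusted p of 0.497 from edgeR. Of 14 transcripts that are higher in the male kidney or driven by androgen, 12 were called lower on ethanol, 8 on MitoGamide, 3 on water and 0 on MitoQ, and edgeR called 0 higher. In the same arms 8.22%, 6.60%, 0.366% and 0.292% of all tested genes were called lower and 8.18%, 7.71%, 0.186% and 0.265% higher. On MitoGamide the call of Kap was lost in 8 of 15 alternatives, with adjusted p up to 0.0862 from edgeR. DESeq2 called 12, 11, 9 and 3 of the list lower and 0, 0, 0 and 1 higher. Their median log2 differences were -1.29, -1.43, -1.88 and -1.04, against medians of all tested genes between -0.0021 and 0.0102. On MitoQ, where edgeR called 0, the unadjusted p was under 0.05 for 10 of the 14, and without WT mouse 3 on MitoQ Cyp4b1 of this list was called lower (adjusted p = 0.0394 by edgeR).

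Slco1a1, a transporter of organic anions and steroid conjugates, was at 38.1 ± 6.39 CPM in the Akita group against 343 ± 83.2 CPM in the WT group on ethanol, a log2 difference of -3.15 (SE 0.17, adjusted p = 2.42e-07). Kap, the androgen-regulated protein of the proximal tubule, differed by -1.88 (SE 0.16, adjusted p = 1.18e-05), Cyp4b1, a cytochrome P450, by -1.44 (SE 0.10, adjusted p = 3.14e-06) and Slc22a30, an organic anion transporter, by -1.25 (SE 0.12, adjusted p = 4.35e-05), all by edgeR on ethanol. Of 3 transcripts that are higher in the female kidney, 3, 1, 3 and 1 were called higher in Akita mice by edgeR and 3, 1, 3 and 2 by DESeq2, which added Prlr on MitoQ (adjusted p = 0.0216). Cyp4a14, a lipid hydroxylase, was called in all 4 arms, at 670.2 ± 543 CPM in the Akita group against 59 ± 23.6 CPM in the WT group on MitoGamide with log2 differences of 3.02, 3.53, 3.79 and 3.69 in the 4 arms by edgeR. The calls of Cyp4a14 on water and MitoQ were lost in 9 and 8 of 15 alternatives, with adjusted p up to 0.131 and 0.127 from edgeR. Prlr, the prolactin receptor, was called on ethanol with a log2 difference of 1.62 (SE 0.21, adjusted p = 2.31e-04) and on water with 1.97 (SE 0.36, adjusted p = 0.0355) by edgeR. The call of Prlr on water was lost in 8 of 15 alternatives, with adjusted p up to 0.113 from edgeR. The summed level of the male list was 6871 to 20156 CPM over WT libraries and 1185 to 11288 CPM over Akita libraries. That of the female list was 16.9 to 134 CPM over WT and 135 to 1685 CPM over Akita libraries. The 5 markers of the last proximal tubule segment summed to 1088 to 2498 CPM in WT and 314 to 1332 CPM in Akita libraries, and their edgeR calls were 2, 2, 1 and 0 lower and 1, 1, 0 and 0 higher. Atp11a made up most of these sums, with medians of 1486 CPM in WT and 561 CPM in Akita libraries. The medians of Slc7a13, also on the male list, were 395 and 148 CPM and those of Cyp7b1 42.0 and 18.3 CPM. Slc5a1, at 44.8 and 57.9 CPM, and Slc22a13, at 26.6 and 32.1 CPM, had higher medians in Akita libraries. Of 4 podocyte markers 3, 3, 0 and 0 were called higher in Akita mice by edgeR, of 3 markers of principal cells 1, 3, 0 and 0 and of 5 markers of the first segments of the proximal tubule 2, 0, 0 and 0. Beside the calls of these lists, 8.18%, 7.71%, 0.186% and 0.265% of all tested genes were called higher and 8.22%, 6.60%, 0.366% and 0.292% lower. Summed levels in WT and Akita libraries were 67.5 to 186 and 85.7 to 211 CPM for podocytes, 76.1 to 157 and 128 to 239 CPM for principal cells and 609 to 1253 and 734 to 1779 CPM for the first segments. Of the 6 general markers of the proximal tubule, 1, 2, 0 and 0 were called lower by edgeR. Lrp2, the endocytic receptor megalin, differed by -0.47 (adjusted p = 0.00483) on ethanol and -0.57 (adjusted p = 0.018) on MitoGamide, and Slc34a1, a phosphate transporter, by -0.45 (adjusted p = 0.0465) on MitoGamide, all log2 differences from edgeR. The leukocyte list held 5 markers, of which 3 were tested in each arm, and edgeR called 1, 1, 0 and 0 lower and 0 higher. The called marker was Ptprc, at -0.73 (adjusted p = 6.18e-04) on ethanol and -0.58 (adjusted p = 0.0276) on MitoGamide by edgeR. Called or not, 3, 2, 2 and 2 of the 3 were lower in Akita mice. Among 3 endothelial markers Emcn was called lower on ethanol and Pecam1 higher on MitoGamide by edgeR, and of the 3 liver markers 1 was called higher on ethanol. The part of these lists in the levels of the members was not tested.

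Across libraries the members were compared by Spearman's correlation of log2 CPM, as a description, since the libraries share arm, depth and scaling. Over all 40 libraries rho lay between 0.70 and 0.91 for the 15 pairs of members, which the gap between genotypes sets. Within the 20 WT libraries it lay between -0.19 and 0.58 with a median of 0.13. Gm43158 and AA536875 were the highest pair over the 20 WT libraries, at 0.58, and reached 0.76 over the 10 of the ethanol arm, 0.88 over the 10 of the water arm and 0.70 over the 20 Akita libraries. These members lie on chromosomes 3 and 14. Gm15895 and Cntnap5a reached 0.53 over the WT libraries. Among neighbours and relatives over the 20 WT libraries, Gm43158 reached 0.85 with Gm4609, 0.74 with Adh6-ps1 and 0.74 with Nalcn, and Gm15895 reached 0.60 with Il34. Without WT mouse 3 on MitoQ these values were 0.82, 0.70, 0.70 and 0.61 over 19 libraries, and that of Gm43158 and AA536875 was 0.53, below that of Gm15895 and Cntnap5a at 0.58, which was then the highest pair of members.

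**Figure D5:**
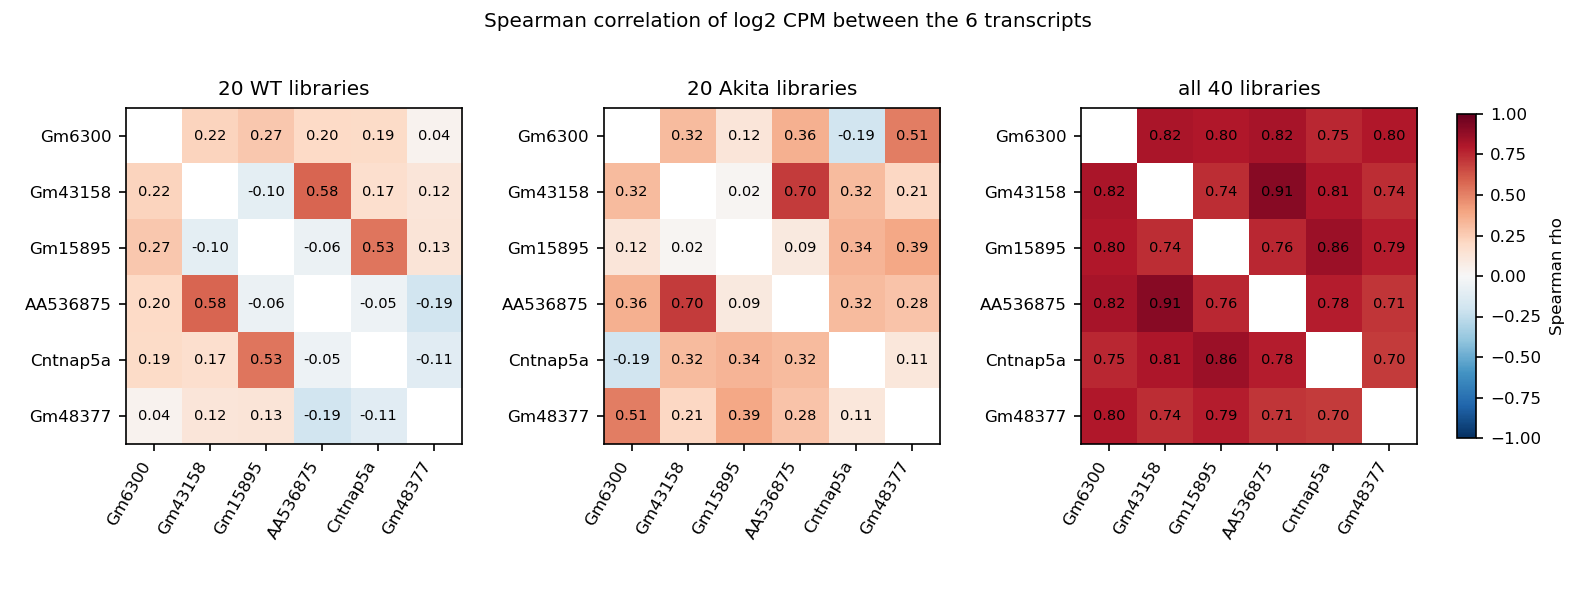
Spearman's rho of log2 CPM between the 6 transcripts (both axes) over the 20 WT, the 20 Akita and all 40 libraries (panels), with rho as colour and printed in each field. All fields over 40 libraries are at 0.70 or above, whereas the field of Gm43158 and AA536875 is the highest in each panel, at 0.58, 0.70 and 0.91.

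The genes most like each member over all 40 libraries were Hsd17b11, Slco1a1 and Acsm3 for Gm6300 (rho 0.89, 0.88 and 0.87), AA536875, Adh6-ps1 and Ldc1 for Gm43158 (0.91, 0.90 and 0.89) and Cntnap5a, Hrg and Atp11a for Gm15895 (0.86, 0.86 and 0.85). For AA536875 they were Hsd3b2, Gm43158 and Col6a6 (0.92, 0.91 and 0.89), for Cntnap5a Ttbk1, Ldc1 and Gm15348 (0.90, 0.90 and 0.88) and for Gm48377 Gm47922, Fras1 and Htra1 (0.87, 0.85 and 0.85). Slco1a1 and Acsm3 are on the list of male transcripts above. The members were chosen for the gap between genotypes, so other genes with such a gap rank high over all 40 libraries. Nothing is read from these names. Over the 20 WT libraries alone, where genotype plays no part, the nearest genes were Mapk13 (0.82) for Gm6300, Gm4609 (0.85) for Gm43158, Atp11a (0.77) for Gm15895, Nol4l (0.77) for AA536875, Gm47405 (0.77) for Cntnap5a and Gm36816 (0.83) for Gm48377. Atp11a, which encodes a lipid flippase, was among the 3 genes most like Gm15895 in both sets of libraries with TMM scaling, but with CPM of the library total it ranked 6 over the WT and 5 over all 40 libraries. Of the 18 genes named by this rule over all 40 libraries, 15 were named again when CPM of the library total was used, but only 6 of the 18 over the WT libraries.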

How the data were processed

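RNA from the kidney cortex of individual mice, 200 ng per library, was depleted of ribosomal RNA, converted with a directional kit and sequenced as single reads of 100 cycles. Per the labels and the study's methods, the authors trimmed reads with Skewer and deposited estimated counts per gene, made with kallisto 0.46.1 against GRCm38 with the GENCODE release 25 annotation and R 4.0.2. These estimated counts divide reads that fit several transcripts, which bears on members with close relatives. The strand setting of the counting is not given in the sources used here. No column of a sample was left unused (0 columns).

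Groups were taken from the labels. The members and gene lists were chosen with earlier results of these data known. Counts were rounded to whole numbers, genes averaging 10 or more counts across the libraries of a comparison were kept, and each comparison was fitted on its own 10 libraries with TMM scaling and edgeR's quasi-likelihood test (edgeR 4.0.16, R 4.3.3), with Benjamini-Hochberg adjustment over all tested genes and a threshold of 0.05. Levels (CPM) are counts divided by the TMM-scaled library size over 40 libraries, times 1000000 (python 3.11.15). Ratios of summed counts carry exact conditional 95% intervals, which cover counting error only, and a count of 0 is given a floor of 3 counts. Library totals of 9106654 to 24321424 set this precision. Each library came from 1 mouse.

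Named are the members, the nearest gene on each side, neighbours within 500 kb called in all 4 arms, the 3 genes most like each member by Spearman's correlation of log2(CPM + 0.5) over 20 WT and over 40 libraries among 17769 genes, and up to 4 genes per list with the smallest p on ethanol. Sequence relatives and other genes outside this rule, such as Adh1, Gm17167 and Slc7a13, were chosen after their values were seen. Positions and transcripts were read from GENCODE release 21, which held 55141 of the 55401 gene identifiers, and promoters from RefSeq on GRCm38.p6. On simulated counts with 200 genes changed 4-fold, 92% were recovered for Akita against WT on ethanol (17533 genes) and 94.5% for MitoGamide against ethanol in WT mice (17163 genes). The simulated noise was drawn separately for each gene. Comparisons with water or MitoQ libraries were not simulated, so these shares do not describe them. Alternatives were DESeq2 1.42.0, RLE scaling, other filters on low counts, the replicate number as a block and each library left out in turn.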

Additional observations from a re-analysis of the deposited data

Results flagged for a closer look

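In 4 of the 48 sets of 5 libraries, 6 members in 8 groups, the highest library lay apart from the other 4 by more than the 95% critical value of Dixon's test, which chance exceeds in about 1 of 20 sets. All 4 were Akita libraries at a few counts. Gm6300 was at 0.616 CPM in Akita mouse 1 on MitoQ, against 0 to 0.153 CPM in the other 4. Gm43158 was at 0.480 CPM in Akita mouse 4 on MitoGamide, against 0.109 to 0.165 CPM. Gm15895 was at 0.562 CPM and Cntnap5a at 1.19 CPM in Akita mouse 2 on MitoQ, against 0.168 to 0.255 CPM and 0.280 to 0.509 CPM in the other mice of that group. Each of these values lay below the lowest WT value of its arm.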

How the results depend on the processing

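The mean levels of the 6 members in the 8 groups stayed within 1 SD of the reported means with RLE scaling and with CPM of the library total. With a library left out in turn, WT group means were 0.785 to 1.18 times those of 5 mice. Akita means of Gm6300 fell from 0.308 to 0.161 CPM without mouse 4 on MitoGamide and from 0.182 to 0.0733 CPM without mouse 1 on MitoQ, that of Gm43158 from 0.207 to 0.127 CPM without mouse 5 on ethanol, and those of AA536875 from 0.0809 to 0.0497 CPM without mouse 4 on MitoGamide and from 0.244 to 0.122 CPM without mouse 3 on water. With DESeq2 the genes called were 354 and 415 for Akita against WT on water and MitoQ, 74, 2 and 725 in WT mice for MitoGamide, MitoQ and ethanol against water, and 1069 and 4264 in Akita mice for MitoGamide and ethanol against water. Without a filter on low counts 1352 genes were called for ethanol against water in Akita mice. Of the genes most like a member, 21 of 36 were named again with CPM of the library total. The cause of these shifts was not tested.

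With the replicate number as a block (replicate block), 32 and 48 genes were called for Akita against WT on water and MitoQ, 1 and 2 in WT mice for MitoQ and ethanol against water, and 0 in Akita mice for MitoGamide and for ethanol against water. The calls of Il34 and Adh6-ps1 on water were lost with it (adjusted p = 0.0736 and 0.0721, edgeR). So were those of Slc7a12, Slc7a13, Prlr and Cyp4a14 on water and of Gm4609 and Cyp4a14 on MitoQ. Same-numbered libraries shared only a number: correlations of their deviations from the group means ran from -0.50 to 0.70, at most 3 of 5 pairs in any comparison were over 0.1, and at most 2 of 5 libraries correlated best with their own number.

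With each library left out in turn, calls ranged from 1248 to 2822 for Akita against WT on MitoGamide, 32 to 94 on water and 35 to 270 on MitoQ (270 without WT mouse 3). They ranged from 0 to 4 and 0 to 5216 in WT mice for MitoGamide and ethanol against water, and from 0 to 802 and 1 to 6496 in Akita mice.

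Small treatment differences of the members changed sign, none of them past the threshold. For ethanol against water in WT mice, Gm15895 was at 0.0501 on the log2 scale without a filter and at 0.0472 with the replicate block, and Cntnap5a at -0.0235 with at least 10 counts in every library. With a library left out, this comparison ran from -0.17 to 0.29 for Gm6300, -0.24 to 0.31 for Gm15895 and -0.19 to 0.18 for Cntnap5a. MitoQ in WT mice ran from -0.12 to 0.32 for Gm6300, -0.0544 to 0.46 for Gm15895 and -0.0489 to 0.31 for Cntnap5a. MitoGamide ran from -0.0464 to 0.27 for Gm15895 and -0.0900 to 0.25 for Cntnap5a in WT mice, and from -0.15 to 0.15 for Gm48377 in Akita mice. Akita levels of the members other than Gm48377 rest on 0 to 17 counts per library, so that treatment differences there were not detectable at this depth unless large.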
